A study of Mus musculus with 29 samples.

Results

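Mammary fat from mice that became obese and were then given an unrestricted low-fat diet (LFD, 5 libraries) was compared with mammary fat from mice that stayed obese (Obese, 5 libraries). These are 10 of the 29 RNA-seq libraries of the study, chosen by the treatment field of the labels, and every gene of the table was considered. The mice of both groups were wild-type C57BL/6N that had been fattened on a 60% fat diet (D12492), and the mice of both groups received tumour cells. In week 25 after the first randomisation, E0771 cells, a mouse mammary cancer line, were injected into mammary gland 4, and the tissue sequenced is gland 9 on the opposite side. LFD mice were moved to a low-fat diet eaten freely once they were obese. How long they ate it, their body weights, sex and age are not given in the labels. Beside this comparison stand mice whose low-fat diet was restricted by 30% of calories (LFCR, 5 libraries), which had been fattened in the same way, and mice kept on the control diet D12450J (Control, 5 libraries), which were not fattened but were injected too.

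White fat cells store triglyceride and, when well fed on carbohydrate, also make fatty acids themselves from acetyl-CoA. Expanding fat cells release the hormone leptin in proportion to the fat stored, and macrophages that gather around dying fat cells take up their lipid and switch on genes for lysosomes and lipid handling. In the mammary gland this fat surrounds a tree of epithelial ducts and a lymph node, all of which add RNA to a piece of the gland.

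The titles call the samples tumour and the labels carry the name of the injected line, whereas the tissue field and the source name give normal mammary tissue. Defining transcripts of mammary fat were present in all 10 libraries. Adipoq, the fat cell hormone adiponectin, had 63541, 49202, 42737, 51987 and 56683 normalized counts in LFD libraries 1 to 5, against 58948, 37384, 44549, 34606 and 77646 in Obese libraries 1 to 5 (log2 difference 0.12 ± 0.28 SE, adjusted p = 0.894). A normalized count is the number of reads of a gene divided by the size factor of its library, and further lists of values follow the same order of libraries. Recovered depth was 18170682 to 40624090 reads in LFD and 17599285 to 49026986 in Obese. The libraries are taken as 1 per mouse because each title has its own animal number, and p-values cover the variation among libraries. Unless stated otherwise, that variation was estimated within the 6 groups of all 29 libraries and not from these 10 alone.

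Some libraries stood apart in transcripts of other cells. LFD 1, Obese 1 and Obese 5 were low in lymphocyte transcripts, and the summed counts of 13 B cell genes ranged from 19080.3 to 92548 in LFD and from 13072 to 137293 in Obese. For 12 skeletal muscle genes the summed counts ranged from 1162 to 29128 in LFD, with LFD 5 highest, and from 876 to 48055 in Obese, with Obese 2 highest. None of the B cell, T and NK cell or skeletal muscle genes passed the test between the groups. With the mean of the B cell list as a covariate 2528 genes passed between LFD and Obese, all 1159 of those reported next among them, and with the mean of the skeletal muscle list 1068 passed, 1044 of them shared.

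LFD mammary fat differed from Obese fat in 1159 of 19387 genes tested (5.98%), of which 524 rose (2.70%) and 635 fell (3.28%) at an adjusted p under 0.05 (limma, Benjamini-Hochberg over all genes). Counts of called members in the gene lists below are to be read against these shares. The genes that rose had a median log2 difference of 0.85 and those that fell a median of -0.65. A difference of more than 2 on the log2 scale was reached by 15 genes that rose and 24 that fell. The values of the 2 groups did not overlap for 1055 genes (5.44%), with LFD above Obese for 469 (2.42%) and below for 586 (3.02%).

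These counts depend on which libraries enter. Leaving out LFD 3, LFD 4 or LFD 5 gave 621, 456 and 623 genes, leaving out Obese 1, Obese 2, Obese 3 or Obese 5 gave 507, 711, 731 and 696, and leaving out LFD 2 gave 1634. A total of 376 genes (1.94%) passed in all 10 fits that left out 1 library. Without the 8 libraries of the study that are low in lymphocyte transcripts 171 genes passed, and in a fit of only these 10 libraries 140 passed. Of the 376, 130 (0.671%) also passed without those 8 libraries, 41 of them higher in LFD (0.211%) and 89 lower (0.459%). Of the 73 called genes among the 194 described by rule or list, 27 kept their call without the 8 libraries, 21 in the fit of only these groups and 9 with the luminal covariate described further on. A call that was lost when 1 library was left out is named beside the gene.

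**Figure D1:**
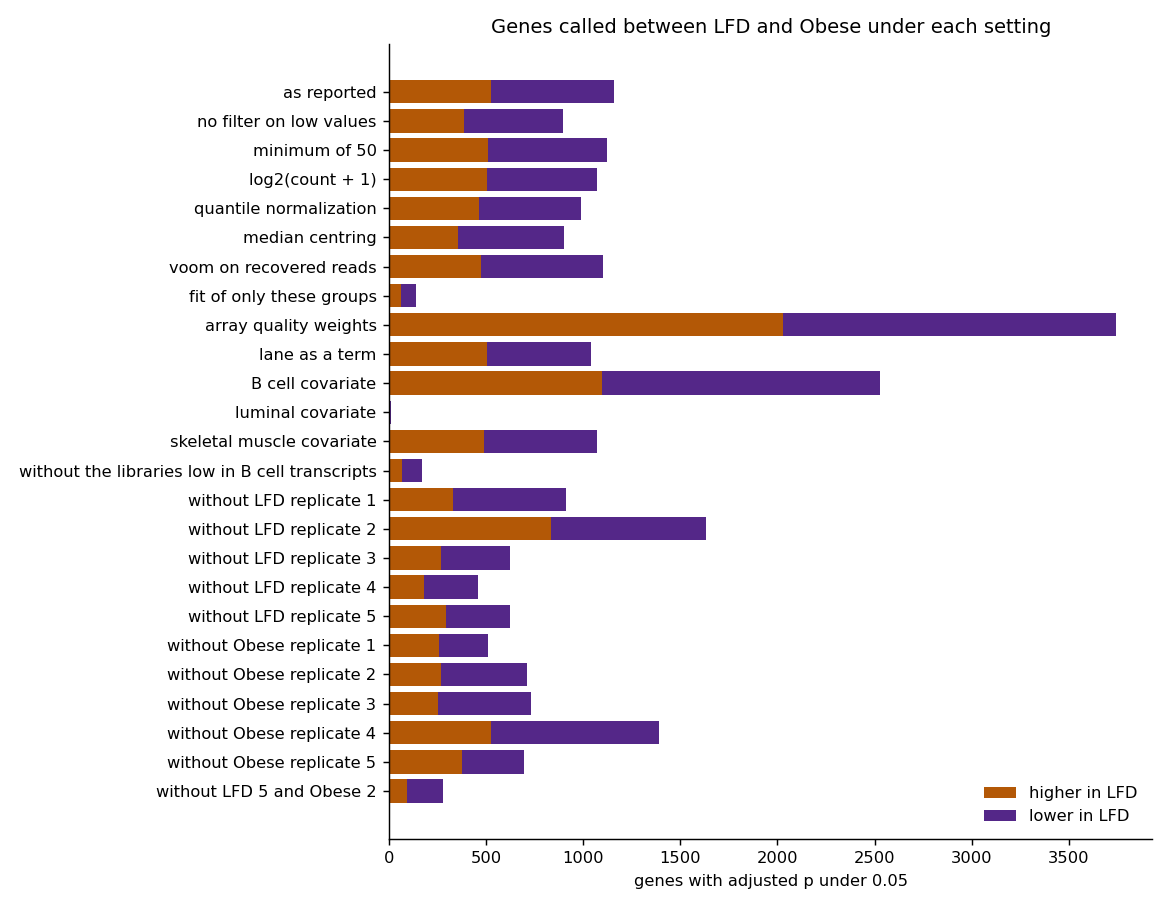
Number of genes with adjusted p under 0.05 between LFD and Obese (x axis) under each setting (y axis), split into genes higher and lower in LFD. The count as reported is 1159, and it runs from 12 with the luminal epithelium mean as a covariate to 3744 with array quality weights.

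The gene with the largest rise was Cyp2e1, a cytochrome P450 that oxidises small molecules such as ethanol and acetone. It had 8090.4, 7618, 26134, 30965 and 33234 normalized counts in LFD, against 210.3, 369.8, 1341, 1118 and 1497 in Obese (log2 difference 4.57 ± 0.55 SE, adjusted p = 6.11e-05). The lowest LFD library was above the highest Obese library, and the log2 difference lay between 4.26 and 5.10 in each of the 4 lanes that held a library of both groups. Adrb3, the beta-3 adrenergic receptor through which noradrenaline starts lipolysis in rodent fat cells (chromosome 8, 27225776 to 27250616 in GRCm38, protein-coding), had 5042, 7587, 7065, 12036 and 12538 counts in LFD, against 1363, 533, 1038, 1873 and 3226 in Obese (log2 difference 2.60 ± 0.35 SE, adjusted p = 0.000221). The groups did not overlap.

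The core genes Fasn, Acaca and Thrsp of fatty acid synthesis were high in LFD fat, with wide differences among the LFD mice. Fasn, the fatty acid synthase, had 19683, 159290.0, 64904, 284163 and 363446 normalized counts in LFD, against 5726, 5526, 15363, 9256 and 14415 in Obese (log2 difference 3.66 ± 0.81 SE, adjusted p = 0.00911). The lowest LFD library, LFD 1, was above every Obese library, and LFD 4 and 5 were far above LFD 1. Acaca, the acetyl-CoA carboxylase that makes the building block for Fasn, had 10655, 27165, 16529.6, 54157 and 73187 counts in LFD, against 4949.6, 3216, 3547, 3760.2 and 5599.6 in Obese (log2 difference 2.78 ± 0.63 SE, adjusted p = 0.0109). Thrsp, a small nuclear and cytosolic protein that promotes lipogenesis, had 3343, 15680.4, 3302, 19549.6 and 19636 counts in LFD, against 840.3, 458, 1134, 1328 and 2099.9 in Obese (log2 difference 3.11 ± 0.70 SE, adjusted p = 0.0101). LFD 1 and 3 were the lowest of their group and LFD 4 and 5 the highest for all 3 genes, and no LFD library overlapped with Obese. Without the libraries low in lymphocyte transcripts the adjusted p was 0.0496 for Fasn, 0.0558 for Thrsp and 0.0558 for Acaca, and in the fit of only these groups it was 0.0522, 0.0522 and 0.0412 for the same genes.

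The promoters of Fasn, Thrsp and Cyp2e1 are shown because these genes were among the largest rises, and Fasn and Thrsp followed each other across the LFD libraries. Each is the RefSeq sequence from 250 bases before to 50 after the gene's start in GRCm38.p6, 5′ to 3′ on the gene's strand, and 3 of 3 genes were matched by symbol. Fasn is at chr11:120824498-120824797 on the minus strand, Thrsp at chr7:97417501-97417800 on the minus strand and Cyp2e1 at chr7:140763569-140763868 on the plus strand. Capitals mark CCAAT, the letters that the factor NF-Y binds, on either strand, where ATTGG is CCAAT on the other strand.
Fasn: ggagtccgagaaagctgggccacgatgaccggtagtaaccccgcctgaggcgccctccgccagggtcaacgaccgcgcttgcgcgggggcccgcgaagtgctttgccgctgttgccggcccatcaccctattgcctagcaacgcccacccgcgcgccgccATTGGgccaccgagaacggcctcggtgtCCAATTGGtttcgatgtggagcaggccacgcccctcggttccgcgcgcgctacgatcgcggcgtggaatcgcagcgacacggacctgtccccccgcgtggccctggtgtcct
Thrsp: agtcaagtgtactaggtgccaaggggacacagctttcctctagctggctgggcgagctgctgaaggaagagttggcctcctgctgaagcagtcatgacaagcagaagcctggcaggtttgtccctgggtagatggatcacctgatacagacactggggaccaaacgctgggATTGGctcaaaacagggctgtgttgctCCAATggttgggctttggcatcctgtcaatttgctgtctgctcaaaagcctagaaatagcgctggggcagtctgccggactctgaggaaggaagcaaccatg
Cyp2e1: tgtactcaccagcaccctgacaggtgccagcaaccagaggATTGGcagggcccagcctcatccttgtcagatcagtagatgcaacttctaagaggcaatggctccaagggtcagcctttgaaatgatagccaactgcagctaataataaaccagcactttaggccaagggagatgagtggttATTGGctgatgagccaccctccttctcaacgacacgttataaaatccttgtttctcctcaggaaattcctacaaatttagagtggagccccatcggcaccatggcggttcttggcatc
The Fasn promoter held 3 matches, 2 of which overlap in 1 run, and the Thrsp and Cyp2e1 promoters held 2 each. Of all 32851 promoters in the table, 12289 (37.4%) held CCAAT on either strand, and a match is a description only.

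The other lipogenic genes did not pass, although most had positive differences. Of 20 fatty acid synthesis genes tested, 3 rose and none fell, 19 had a positive difference, and the median was 1.02, against a median of -0.0025 over all genes. Acly, which makes acetyl-CoA from citrate, had 6255, 16670.4, 7340.1, 29319 and 38875 counts in LFD, against 5254, 4852, 5358, 5379.6 and 5778 in Obese (log2 difference 1.53 ± 0.71 SE, adjusted p = 0.219). Every LFD library was above every Obese library although the test did not pass. Elovl6, which lengthens the product of Fasn, had a log2 difference of 2.63 (adjusted p = 0.0896) and Scd1, a desaturase, one of 1.00 (adjusted p = 0.232). Of the regulators, Mlxipl, also called ChREBP, had a difference of 0.68 (adjusted p = 0.367) and Srebf1, which encodes SREBP-1, one of 0.49 (adjusted p = 0.400). Acsm3, a mitochondrial enzyme that activates medium-chain fatty acids, rose as well, with 276, 215, 234, 663 and 1209 counts in LFD, against 88.9, 34.5, 53.0, 105 and 98.8 in Obese (log2 difference 2.18 ± 0.45 SE, adjusted p = 0.00616; 0.0550 without the libraries low in lymphocyte transcripts).

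Genes of triglyceride assembly rose in part, and none of lipolysis, lipid droplets or fatty acid uptake passed. Of 12 triglyceride assembly genes, 3 rose, against 2.70% of all genes, with a list median of 0.51. They were Pck1, a carboxykinase used for making glycerol phosphate (1.20), Mogat1, a monoacylglycerol acyltransferase (1.01), and the phosphatidate phosphatase Lpin2 (0.53). These calls were close to the threshold. That of Pck1 was lost when any 1 of 6 libraries was left out (all but LFD 1, LFD 2, Obese 4 and Obese 5; adjusted p up to 0.109), that of Mogat1 when any 1 of 8 libraries was left out (all but LFD 1 and LFD 2; adjusted p up to 0.136) and that of Lpin2 when any 1 of 8 libraries was left out (all but LFD 2 and Obese 4; adjusted p up to 0.154). None of 14 lipolysis and lipid droplet genes or 12 fatty acid uptake genes passed, with medians of -0.05 and -0.24. None of the adipogenic transcription factors passed either, and Pparg, the factor that fat cells need to form, had a difference of 0.19 (adjusted p = 0.792).

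Mitochondrial genes had small positive differences, and nearly none passed. All 46 oxidative phosphorylation genes, all 27 citrate cycle genes and all 19 branched-chain amino acid breakdown genes had positive differences, with medians of 0.30, 0.43 and 0.36. Only 2 of these genes passed, both in the citrate cycle, the isocitrate dehydrogenase subunit Idh3b (0.61, adjusted p = 0.0260) and the succinyl-CoA ligase subunit Suclg2 (0.42, adjusted p = 0.0498). The call of Idh3b was lost without LFD 4, LFD 5, Obese 1 or Obese 2 (adjusted p up to 0.0900), and that of Suclg2 in every one of the 10 fits that left out 1 library (adjusted p up to 0.127). Genes of 1 pathway share their libraries, so the common direction is not independent evidence from each gene.

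Ucp1, the defining marker of heat-producing fat, was high in 3 of the 5 LFD mice. This uncoupling protein of brown and beige fat had 1.95, 25.6, 621, 2484 and 2879 counts in LFD, against 156, 32.1, 20.5, 1.49 and 25.9 in Obese (log2 difference 2.69 ± 1.12 SE, adjusted p = 0.165). LFD 3, 4 and 5 were above every Obese library, and LFD 1 and 2 lay within the Obese range. The difference did not pass the test. Cidea, a lipid droplet protein of the same cells, had a difference of 2.53 (adjusted p = 0.0573). Of 15 thermogenic genes tested 2 rose, against 2.70% of all genes. They were Cox8b, a cytochrome oxidase subunit of brown fat and muscle (2.28, adjusted p = 0.0258), and Dio2, the deiodinase that activates thyroid hormone (1.15, adjusted p = 0.0169). The call of Cox8b was lost without LFD 3, LFD 4, LFD 5, Obese 1 or Obese 5 (adjusted p up to 0.0907) and that of Dio2 without Obese 5 (adjusted p = 0.0512). LFD 5, which had the highest Ucp1, was also the LFD library with the highest skeletal muscle counts. With the muscle list as a covariate Cox8b had a difference of 2.27 (adjusted p = 0.0310) and Dio2 one of 1.17 (adjusted p = 0.0192). In the same fit Cidea had 2.57 (adjusted p = 0.0608) and Ucp1 2.67 (adjusted p = 0.185). The adjusted p of Cox8b was 0.113 without LFD 5 and Obese 2, and 0.0608 without the libraries low in lymphocyte transcripts. Beyond these fits, whether muscle in the tissue bears on these genes was not tested.

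**Figure D2:**
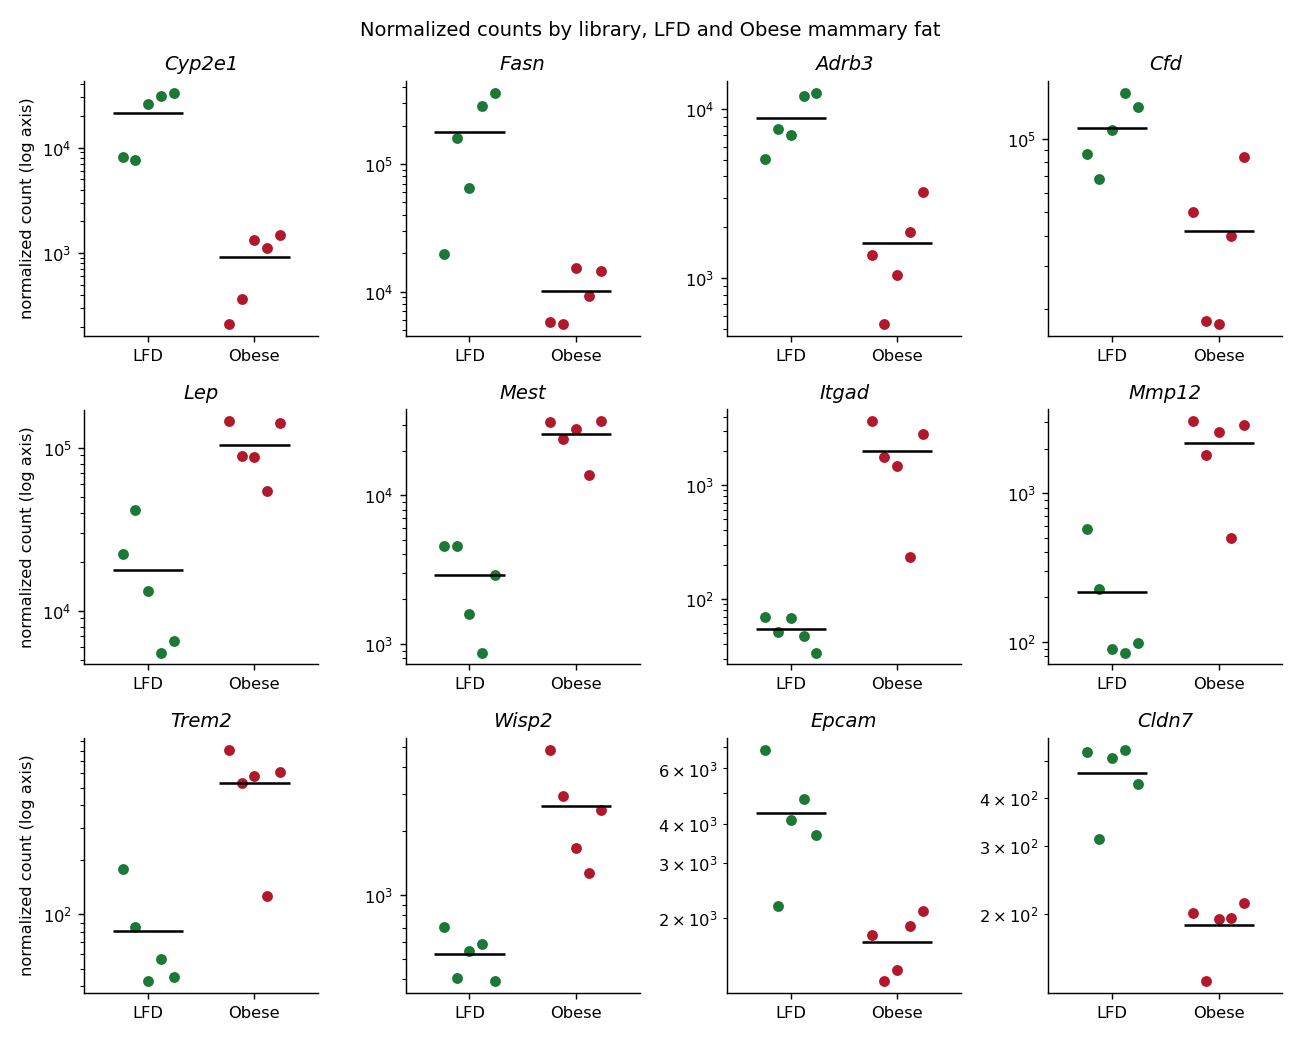
Normalized count (y axis, log) of 12 genes in each of 5 LFD and 5 Obese libraries, drawn in order of replicate number, with the mean of each group as a line. LFD libraries of Cyp2e1, Fasn and Adrb3 all lie above the Obese libraries, and those of Itgad and Lep all lie below them.

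Genes that mark the expansion of white fat were low in LFD fat. Lep, the hormone leptin, had 22191, 41848, 13233, 5516 and 6491 normalized counts in LFD, against 146334, 89864, 88661, 54354 and 143078 in Obese (log2 difference -2.86 ± 0.53 SE, adjusted p = 0.00256). The highest LFD library, LFD 2, was below the lowest Obese library, Obese 4. Mest, an imprinted gene whose level follows fat expansion in mice, had 4555, 4555, 1584, 868 and 2895 counts in LFD, against 31307, 24140.5, 28065, 13767 and 31645 in Obese (log2 difference -3.34 ± 0.69 SE, adjusted p = 0.00589), again with no overlap (adjusted p = 0.0553 without the libraries low in lymphocyte transcripts). Peg10, an imprinted gene derived from a retrotransposon, had 1539.8, 565, 595, 247 and 271 counts in LFD, against 12752, 13254, 2483, 1017 and 9332 in Obese (log2 difference -3.29 ± 0.60 SE, adjusted p = 0.00255), and the groups overlapped.

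Of 10 white fat expansion genes 6 fell and none rose, with a median of -1.75. Besides Lep, Mest and Peg10 they were Sfrp5, a secreted inhibitor of Wnt signals (-3.06, adjusted p = 0.0163), Bmp3, a ligand of the BMP family (-1.96, adjusted p = 0.00813), and Trp53inp2, a protein of autophagy (-1.27, adjusted p = 0.00494). The call of Sfrp5 was lost without LFD 4, LFD 5 or Obese 1 (adjusted p up to 0.0653). The others that did not pass were Peg3 (-1.54, adjusted p = 0.0815), the natriuretic peptide clearance receptor Npr3 (-1.36, adjusted p = 0.0968), the caveolar protein Cav1 (-0.60, adjusted p = 0.237) and the preadipocyte protein Dlk1 (0.09, adjusted p = 0.896). Without the libraries low in lymphocyte transcripts Lep and Peg10 passed, 2 of the 10.

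Among 19 secreted fat cell hormones and related factors, 2 rose and 4 fell, against 2.70% and 3.28% of all genes. Cfd, the complement factor D or adipsin, had 86341, 68065, 108448, 154209 and 135306 counts in LFD, against 50035, 17931, 17371, 39931 and 83909 in Obese (log2 difference 1.60 ± 0.37 SE, adjusted p = 0.0114). The groups overlapped because LFD 2 lay below Obese 5. Nrg4, a ligand of ErbB receptors secreted by brown and beige fat, rose by 1.23 on the log2 scale, a call lost when any 1 of 6 libraries was left out (all but LFD 1, LFD 2, Obese 3 and Obese 4; adjusted p up to 0.0985). Apln, the peptide ligand apelin, fell without overlap, with 169, 160.5, 156, 153 and 141 counts in LFD, against 877, 426, 434, 294 and 749 in Obese (log2 difference -1.58 ± 0.27 SE, adjusted p = 0.00139). The other falls were in Lep, Sfrp5 and Fgf21, a hormone of fasting and stress (-0.79, adjusted p = 0.0217), which lost its call without LFD 4 or Obese 1 (adjusted p up to 0.0810). Igfbp3, which binds insulin-like growth factors, fell to 2849, 2641, 2807, 1905 and 2080.5 counts in LFD, against 12408, 10701, 5165, 4615 and 8615 in Obese (log2 difference -1.66 ± 0.38 SE, adjusted p = 0.0114), and was the only gene of 19 in insulin and IGF signalling that passed (adjusted p = 0.0596 without the libraries low in lymphocyte transcripts).

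Genes of lipid-laden macrophages were low in LFD fat, whereas 1 of 17 general macrophage genes passed. In a whole piece of tissue fewer cells of a type and less RNA per cell cannot be told apart. Itgad, the integrin alpha D of macrophages, had 70.1, 51.1, 68.9, 47.7 and 33.8 normalized counts in LFD, against 3648, 1778, 1474, 234 and 2801 in Obese (log2 difference -4.26 ± 0.51 SE, adjusted p = 6.11e-05). Even the lowest Obese library, Obese 4, was above every LFD library. Mmp12, the macrophage elastase (chromosome 9, 7344381 to 7369499 in GRCm38, protein-coding), had 579, 227, 90.2, 84.5 and 98.8 counts in LFD, against 3060.1, 1822, 2586, 503 and 2877 in Obese (log2 difference -3.31 ± 0.47 SE, adjusted p = 0.000299). The groups overlapped because LFD 1 lay above Obese 4.

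Trem2, the lipid receptor of these macrophages, had 177, 84.6, 42.6, 56.9 and 45.0 counts in LFD, against 811, 534, 581, 126 and 609 in Obese (log2 difference -2.33 ± 0.38 SE, adjusted p = 0.00115), and Obese 4 lay below LFD 1 here too. Of 14 lipid-associated macrophage genes 7 fell and none rose, with a median of -0.93. The other members that fell were Atp6v0d2, a subunit of the lysosomal proton pump (-2.78, adjusted p = 0.00152), Gpnmb, a transmembrane glycoprotein (-1.94, adjusted p = 0.0165), the galectin Lgals3 (-1.28, adjusted p = 0.00135) and cathepsin L, Ctsl (-0.90, adjusted p = 0.0116). The call of Gpnmb was lost without LFD 4, LFD 5 or Obese 1 (adjusted p up to 0.0569). Of the 7, 5 passed without the libraries low in lymphocyte transcripts and 3 in the fit of only these groups. Spp1, osteopontin, had a difference of -0.37 (adjusted p = 0.847) and Itgax, the integrin CD11c, one of -0.96 (adjusted p = 0.157). Tm4sf19, a membrane protein of the tetraspanin-like family, fell too, with 11.7, 5.29, 4.92, 3.35 and 2.41 counts in LFD, against 222, 158, 171, 16.4 and 158 in Obese (log2 difference -2.56 ± 0.32 SE, adjusted p = 8.76e-05), and no overlap.

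Adgre1, the macrophage antigen F4/80, had 1462, 964, 1617, 1330.3 and 833 counts in LFD, against 2538, 2115, 1871, 886 and 2691 in Obese (log2 difference -0.64 ± 0.27 SE, adjusted p = 0.173), and the groups overlapped. Of 17 macrophage genes only Cd68, a lysosomal membrane protein, fell (-0.99, adjusted p = 0.0294), a call lost when any 1 of 7 libraries was left out (all but LFD 1, LFD 2 and Obese 4; adjusted p up to 0.0862). Whether the lipid-associated genes differed more than the general ones was not tested. Of 25 lysosomal genes 7 fell, against 3.28% of all genes, and none rose. The falls were led by Atp6v0d2, the acid lipase Lipa (-0.71, adjusted p = 0.00625), which frees fatty acids from lipid taken up by the cell, and the pump subunit Atp6v0a1 (-0.90, adjusted p = 0.00909). The list median was -0.27. Of these 7, 4 passed in every fit that left out 1 library, and Atp6v0d2 was the only one that passed without the libraries low in lymphocyte transcripts.

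Genes of inflammatory signals moved in both directions. Among 17 cytokine and acute phase genes, Saa3, serum amyloid A3 (-1.97, adjusted p = 0.0151), Il1rn, the interleukin-1 receptor antagonist (-1.74, adjusted p = 0.0139), and the protease inhibitor Serpina3n (-1.29, adjusted p = 0.0259) fell, and Lcn2, lipocalin 2 (1.26, adjusted p = 0.0472), rose, 4 in all against 5.98% of all genes, and the list median was -0.12. None of these 4 passed in all fits that left out 1 library. The call of Saa3 was lost without Obese 1 or Obese 5 (adjusted p up to 0.0564), that of Il1rn without Obese 1 (adjusted p = 0.0540), that of Serpina3n when any 1 of 6 libraries was left out (all but LFD 1, LFD 2, Obese 2 and Obese 4; adjusted p up to 0.0842) and that of Lcn2 when any 1 of 8 libraries was left out (all but LFD 2 and Obese 4; adjusted p up to 0.125). None of the chemokine or interferon response genes passed. Ccl2, a chemokine that attracts monocytes, had a difference of -1.39 (adjusted p = 0.0762) and Tnf, tumour necrosis factor, one of 0.03 (adjusted p = 0.991). Of 18 complement genes, with a median of -0.14, Cfd rose and 2 fell, against 2.70% and 3.28% of all genes. Those that fell were Cd59a, an inhibitor of the membrane attack complex (-1.13, adjusted p = 0.0177), and complement factor B, Cfb (-0.53, adjusted p = 0.0396). The call of Cd59a was lost without LFD 4, Obese 1 or Obese 5 (adjusted p up to 0.0648) and that of Cfb when any 1 of 7 libraries was left out (all but LFD 2, Obese 3 and Obese 4; adjusted p up to 0.113).

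**Figure D3:**
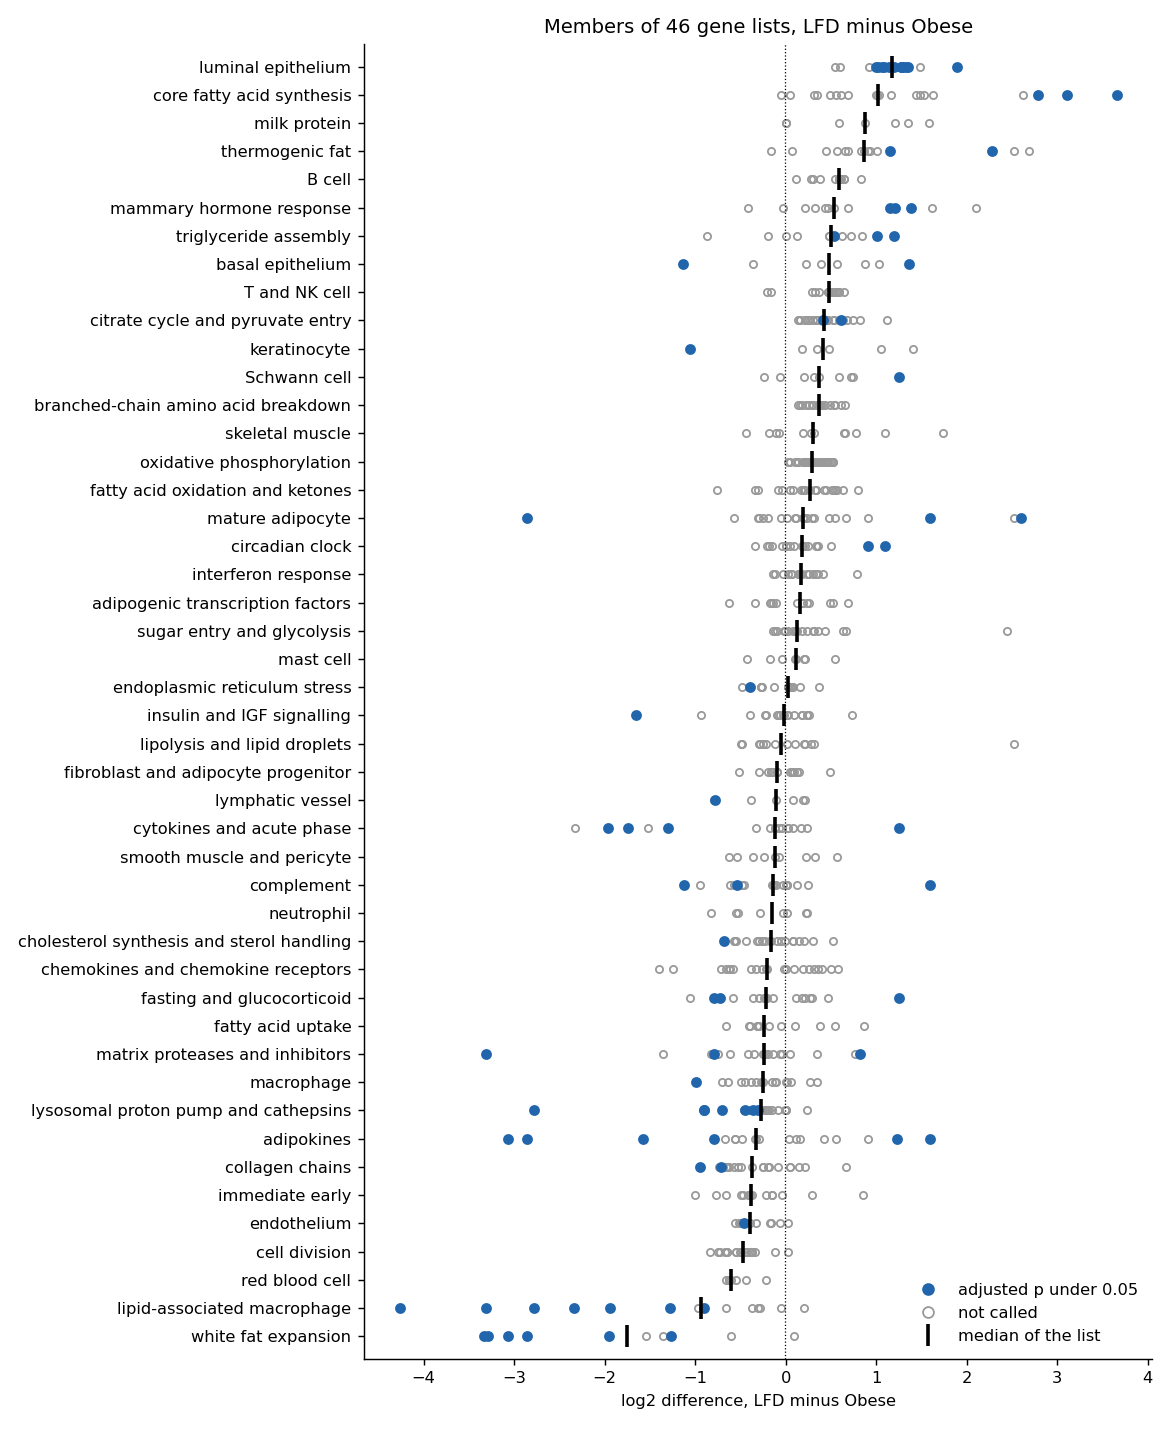
Log2 difference between LFD and Obese (x axis) for the members of 46 gene lists (y axis, sorted by list median), with filled points for adjusted p under 0.05, open points for the rest and a bar at the median of each list. White fat expansion genes have the lowest median and luminal epithelium genes the highest, and the dotted line is the median over all genes.

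Luminal epithelial genes were high in LFD fat. Epcam, an adhesion molecule of epithelial cells (chromosome 17, 87635979 to 87651129 in GRCm38, protein-coding), had 6894, 2193, 4123, 4810.0 and 3690.1 normalized counts in LFD, against 1762, 1258, 1365, 1895 and 2105 in Obese (log2 difference 1.29 ± 0.24 SE, adjusted p = 0.00271). The lowest LFD library, LFD 2, lay just above the highest Obese library, Obese 5. Cldn7, a tight junction claudin, had 527, 314, 508, 535 and 436 counts in LFD, against 200.4, 133, 193, 194 and 213 in Obese (log2 difference 1.19 ± 0.22 SE, adjusted p = 0.00271). The 2 groups did not overlap for either gene. Cdh1, E-cadherin, rose too (1.15, adjusted p = 0.00370), with overlap.

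Of 18 luminal epithelium genes 13 rose and none fell, and the median was 1.17. Of the 13, 6 passed in every fit that left out 1 library, Epcam, Cldn7, Cdh1, the claudin Cldn3 (1.06), the epithelial splicing factor Esrp1 (1.08) and Prom1, prominin 1 (1.89). Krt18 and Krt19, the keratins of luminal cells, rose by 1.33 and 1.35 on the log2 scale, the call of Krt18 being lost without LFD 4 or Obese 3 (adjusted p up to 0.0597) and that of Krt19 without LFD 4 (adjusted p = 0.0598). Summed over the 18 genes, counts ranged from 27252 to 93204 in LFD and from 19043 to 29169 in Obese, and LFD 2, the lowest of its group, lay within the Obese range. Without the libraries low in lymphocyte transcripts 3 of the 18 rose, and in the fit of only these groups 2 did.

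Of 13 genes of the mammary hormone response 3 rose, against 2.70% of all genes. They were Gata3, the transcription factor of luminal cells (1.20, adjusted p = 0.00682), Wnt4, a signal made in response to progesterone (1.15, adjusted p = 0.0236), and Prlr, the prolactin receptor (1.38, adjusted p = 0.0348). Gata3 passed in all 10 fits that left out 1 library (adjusted p = 0.0664 without the libraries low in lymphocyte transcripts), whereas the call of Wnt4 was lost without LFD 1, LFD 3, LFD 4, Obese 1 or Obese 3 (adjusted p up to 0.0753) and that of Prlr when any 1 of 8 libraries was left out (all but LFD 2 and Obese 4; adjusted p up to 0.102). The estrogen receptor Esr1 had a difference of 0.53 (adjusted p = 0.289) and the progesterone receptor Pgr one of 2.11 (adjusted p = 0.0658). Of 8 basal epithelium genes Trp63, the p63 factor of basal cells, rose (1.36, adjusted p = 0.0137) and Oxtr, the oxytocin receptor, fell (-1.14, adjusted p = 0.0492). The call of Trp63 was lost without LFD 4 (adjusted p = 0.0508) and that of Oxtr when any 1 of 7 libraries was left out (all but LFD 1, LFD 4 and Obese 4; adjusted p up to 0.137). None of the milk protein genes passed, and Dmbt1, a secreted epithelial glycoprotein with one of the largest rises (3.20, adjusted p = 0.0150), lost its call without LFD 4 (adjusted p = 0.0522).

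The level of luminal genes and the diet cannot be told apart in these 10 libraries. The list mean was 11.04 ± 0.59 in LFD and 9.88 ± 0.27 in Obese on the log2 scale (SD, n = 5 each). With that mean as a covariate in the fit over all 29 libraries, 12 genes passed in place of 1159, and all 12 are among the 1159. The slope on the luminal mean was therefore not estimated from these 10 libraries alone. Cyp2e1 was the only gene of the 12 that was higher in LFD (4.07, adjusted p = 0.0277 with the covariate). The 11 that were lower are Itgad, Lipf, Tm4sf19, Gm4952, Wisp2, Vsig8, Sult4a1, Oxtr, Erc2, F7 and 2810433D01Rik, of which the last 3 are named after their values were seen. The difference of Oxtr, from the basal epithelium list, was larger with the covariate (-2.32) than without it (-1.14).

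The differences moved unequally. With the covariate the 635 genes that fell had a median difference of -0.57, against -0.65 without it, all 635 kept their sign, and the median standard error was 0.22, against 0.17. The 524 genes that rose had a median of 0.27 with the covariate, against 0.85 without it, and 451 kept their sign. For the 7 lipid-associated macrophage genes that fell the medians were -2.20 with the covariate and -2.33 without it, and for the 6 white fat expansion genes -2.17 and -2.96. For the 13 luminal genes that rose, which form the covariate in part, they were 0.07 and 1.27. Mmp12 had a difference of -3.12 with the covariate (adjusted p = 0.0943), Trem2 one of -2.20 (adjusted p = 0.143) and Lep one of -2.16 (adjusted p = 0.357), against 0.27 for Epcam (adjusted p = 0.663).

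**Figure D4:**
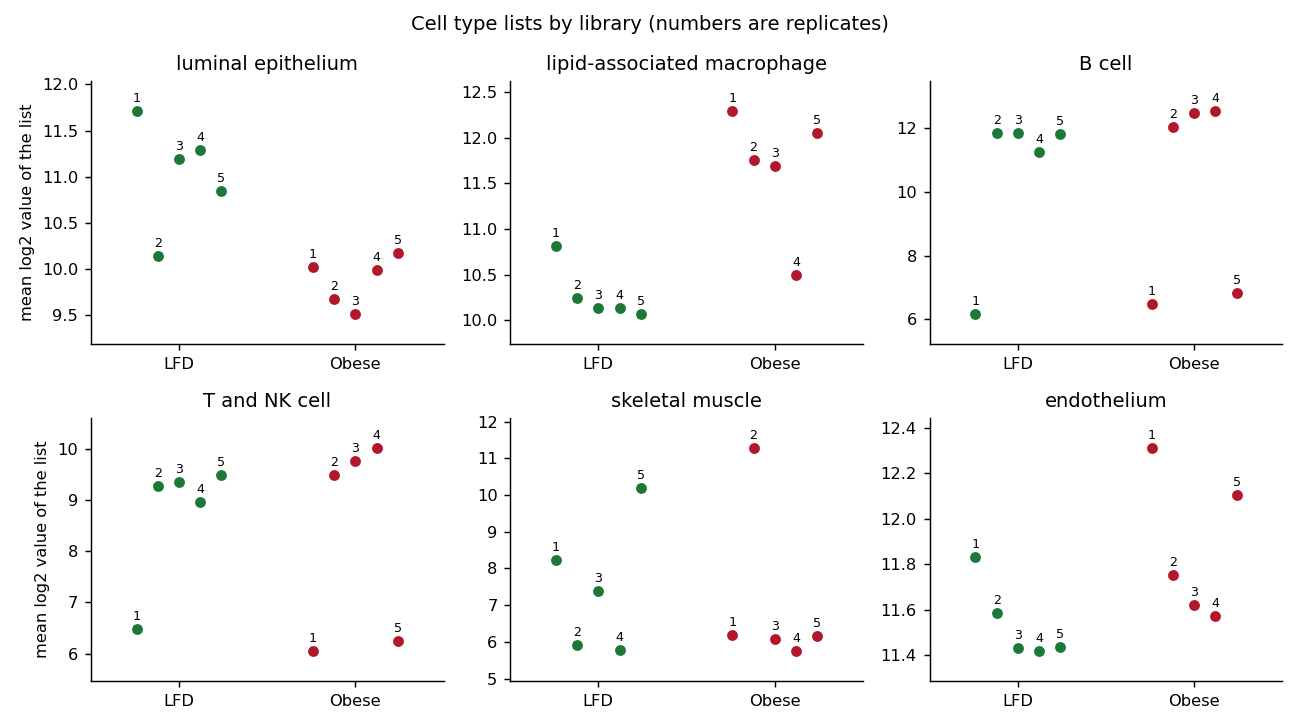
Mean log2 value (y axis) of 6 cell type lists in each LFD and Obese library, with the replicate number beside each point. The luminal epithelium means are higher in LFD, except that LFD 2 lies just below Obese 5. LFD 1, Obese 1 and Obese 5 are low for B cell and T and NK cell genes, and LFD 5 and Obese 2 are high for skeletal muscle genes.

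Some of these 11 genes had very low counts in LFD. Lipf, gastric lipase (chromosome 19, 33961187 to 33976810 in GRCm38, protein-coding), had 6.81, 16.8, 0, 2.51 and 4.82 normalized counts in LFD, against 216, 317, 311, 38.8 and 173 in Obese (log2 difference -3.12 ± 0.35 SE, adjusted p = 6.11e-05). Wisp2, a secreted CCN family protein also called Ccn5, had 708, 403, 544, 586 and 391 counts in LFD, against 4852, 2918, 1664, 1265 and 2502 in Obese (log2 difference -2.15 ± 0.29 SE, adjusted p = 0.000187). Neither gene overlapped between the groups. Vsig8, a member of the immunoglobulin superfamily, had 20.4, 4.41, 3.28, 7.53 and 4.02 counts in LFD, against 179, 81.5, 83.8, 19.4 and 170.1 in Obese (log2 difference -2.08 ± 0.29 SE, adjusted p = 0.000252). Sult4a1, a sulfotransferase family member of the brain, had 5.84, 9.70, 1.64, 1.67 and 0.804 counts in LFD, against 65.6, 59.5, 29.1, 13.4 and 55.7 in Obese (log2 difference -1.57 ± 0.22 SE, adjusted p = 0.000255). Sult4a1 did not overlap between the groups, whereas Vsig8 did, since LFD 1 lay above Obese 4. Atp1a4, the sperm sodium pump subunit, is outside the 12 but passed in every fit that left out 1 library. It fell without overlap, with 35.0, 31.7, 6.56, 8.37 and 5.63 counts in LFD, against 132, 97.1, 142, 75.4 and 172 in Obese (log2 difference -1.99 ± 0.26 SE, adjusted p = 0.000131). With the luminal covariate its adjusted p was 0.0668.

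The 12 largest falls also include Gabrr2 and Tph2, which are best known from the nervous system. Gabrr2, a rho subunit of the GABA receptor, had 100.3, 161, 68.9, 24.3 and 53.8 counts in LFD, against 1122, 668, 677, 406 and 693 in Obese (log2 difference -2.88 ± 0.48 SE, adjusted p = 0.00135). Tph2, the neuronal tryptophan hydroxylase that starts serotonin synthesis, had 18.5, 44.1, 4.92, 5.02 and 8.84 counts in LFD, against 109, 262, 657, 41.1 and 326 in Obese (log2 difference -2.71 ± 0.40 SE, adjusted p = 0.000473). Gabrr2 did not overlap between the groups, and for Tph2 LFD 2 lay above Obese 4. Of 9 Schwann cell genes only Sox10 passed, and it was higher in LFD (1.25, adjusted p = 0.0413), a call lost when any 1 of 7 libraries was left out (all but LFD 2, Obese 4 and Obese 5; adjusted p up to 0.117). With the luminal covariate the difference of Sox10 was -0.042.

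Of the vessel genes, Pecam1, the endothelial adhesion molecule CD31, had 10802, 10095, 9322, 7130.1 and 8785 counts in LFD, against 13249, 12875, 12541, 12697 and 11818 in Obese (log2 difference -0.47 ± 0.10 SE, adjusted p = 0.00631), without overlap. It was the only one of 11 endothelial genes to pass, and the list median was -0.39. Of the lymphatic genes, Flt4, the VEGF-C receptor, fell (-0.78, adjusted p = 0.00949; 0.0632 without the libraries low in lymphocyte transcripts). Of 21 collagen chains 2 fell, against 3.28% of all genes. They were the basement membrane chain Col4a2 (-0.94, adjusted p = 0.0286) and Col12a1 (-0.71, adjusted p = 0.0493). The call of Col4a2 was lost when any 1 of 6 libraries was left out (all but LFD 1, LFD 2, Obese 2 and Obese 4; adjusted p up to 0.0900) and that of Col12a1 when any 1 of 8 libraries was left out (all but LFD 1 and Obese 4; adjusted p up to 0.164). Of 18 matrix proteases and inhibitors 1 rose and 2 fell, against 2.70% and 3.28% of all genes. Mmp15, a membrane metalloproteinase, rose (0.82, adjusted p = 0.00419), and Mmp12, described above, and Mmp23 fell. The call of Mmp23 (-0.79, adjusted p = 0.0459) was lost when any 1 of 6 libraries was left out (all but LFD 1, LFD 2, Obese 3 and Obese 4; adjusted p up to 0.153).

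Bhlhe41, a repressor of the circadian clock, rose (0.91, adjusted p = 0.0447), a call lost when any 1 of 8 libraries was left out (all but LFD 2 and Obese 4; adjusted p up to 0.119). None of the cell division, red blood cell or immediate early genes passed. Of 20 cell division genes 1 had a positive difference, and the list median was -0.47.

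The mice given the low-fat diet after obesity were next set beside mice that were never fattened. None of 19387 genes passed the test between LFD and Control (0.00%), by limma on the deposited values or by limma's voom on the recovered reads, and the smallest adjusted p on the deposited values was 0.394. At an unadjusted p under 0.05 there were 2425 genes (12.5%) on the deposited values and 2664 with voom. A test that does not pass does not show that the 2 groups are alike. Lep averaged 17856 ± 14977 counts in LFD and 11678 ± 6576 in Control (log2 difference 0.45 ± 0.53 SE, adjusted p = 0.615). Mest averaged 2891 ± 1684 in LFD and 1036 ± 921 in Control (log2 difference 1.66 ± 0.69 SE, adjusted p = 0.394), and Fasn averaged 178297 ± 144798 in LFD and 218114 ± 216340.0 in Control (log2 difference 0.05 ± 0.81 SE, adjusted p = 0.977; SD, n = 5 each). The wide spread of Fasn and Mest within each group limits what this comparison can detect. For Itgad the averages were 54.3 ± 15.3 in LFD and 50.6 ± 40.6 in Control (log2 difference 0.25 ± 0.51 SE, adjusted p = 0.779), and for Cyp2e1 21208 ± 12458 in LFD and 15033 ± 12694 in Control (log2 difference 0.58 ± 0.55 SE, adjusted p = 0.536).

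LFD was also set beside the same kind of diet with calorie restriction. Here 1862 of 19387 genes passed (9.60%), 643 higher in LFD (3.32%) and 1219 lower (6.29%). The genes lower in LFD than in LFCR include 13 of 20 fatty acid synthesis genes, 20 of 27 citrate cycle genes, 35 of 46 oxidative phosphorylation genes and 11 of 19 branched-chain amino acid breakdown genes. Fasn averaged 178297 ± 144798 counts in LFD and 746525 ± 231550.1 in LFCR (log2 difference -2.63 ± 0.81 SE, adjusted p = 0.0396), and Acly averaged 19692 ± 14168 in LFD and 104939.6 ± 46536 in LFCR (log2 difference -2.65 ± 0.71 SE, adjusted p = 0.0241). The genes higher in LFD include 13 of 18 luminal epithelium genes, 12 of 20 interferon response genes and 5 of 17 macrophage genes. Epcam averaged 4342 ± 1719 in LFD and 2075 ± 437 in LFCR (log2 difference 0.99 ± 0.24 SE, adjusted p = 0.0156), and Lep averaged 17856 ± 14977 in LFD and 20127 ± 11429 in LFCR (log2 difference -0.42 ± 0.53 SE, adjusted p = 0.640). The count of 1862 was 487 without LFD 1, 19 without the libraries low in lymphocyte transcripts, 794 with lane as a term and 13 with the luminal covariate. The 5 LFD libraries stand in all 3 comparisons, which are therefore not independent of each other.

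**Figure D5:**
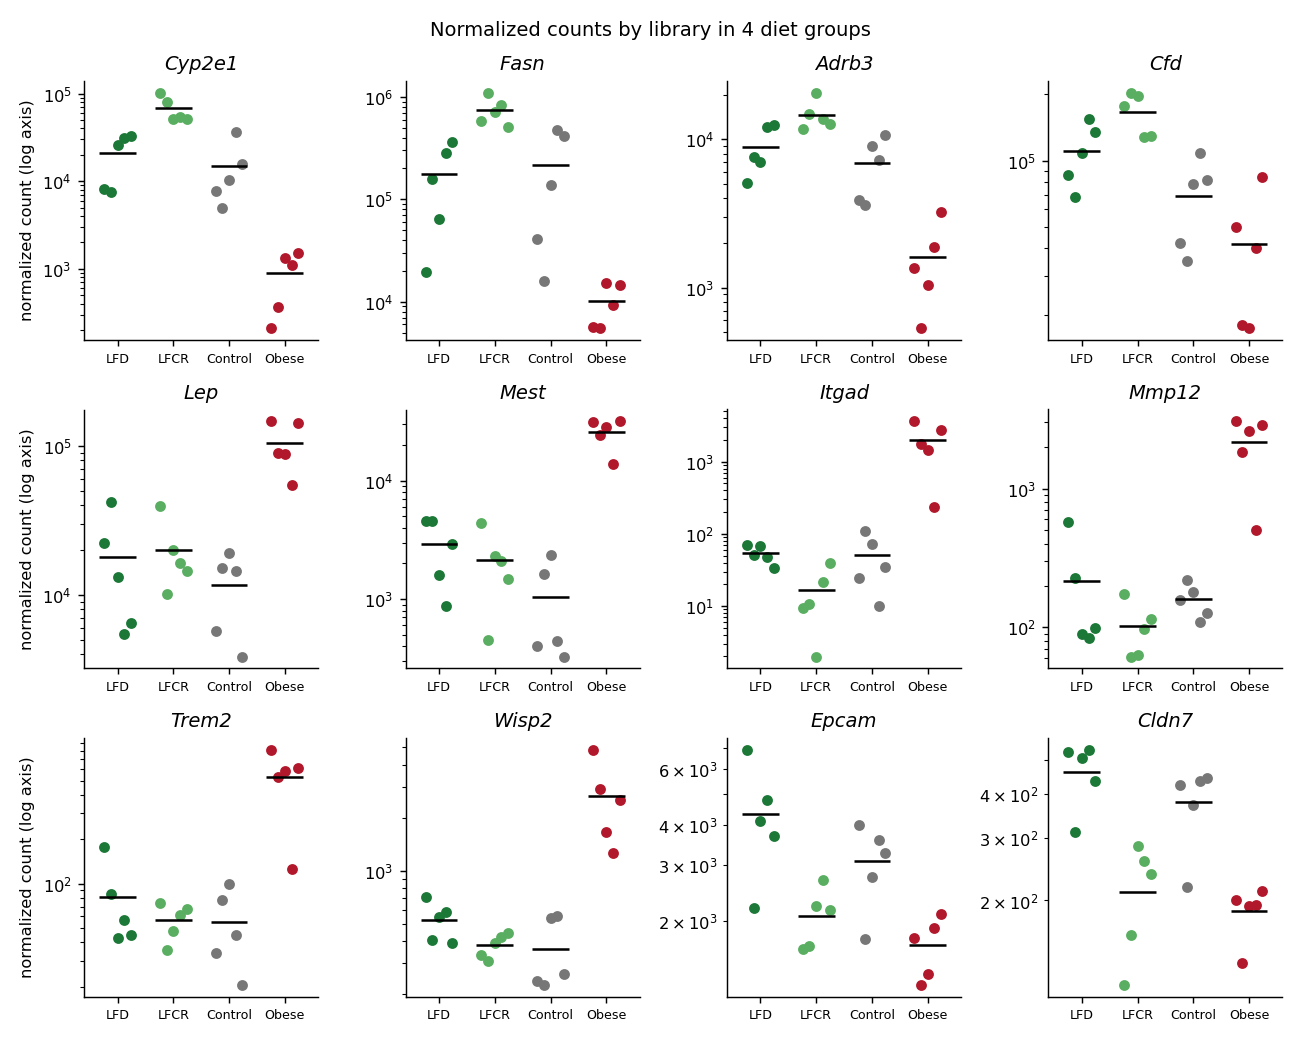
Normalized count (y axis, log) of the same 12 genes in each library of LFD, LFCR, Control and Obese (5 libraries each), with the mean of each group as a line. Every Obese library of Itgad, Lep, Mest, Mmp12 and Wisp2 lies above every Control and LFCR library.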

How the data were processed

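RNA was extracted with TRIzol and sequenced as paired reads of 76 bases from stranded total RNA libraries, per the labels' protocols. TopHat2 2.0.7, HTSeq 0.5.3p9, DESeq2 and the mm10 build were used by the authors, per the submitters' processing notes. Which annotation and counting options they chose is not given in the sources used here. Values in the deposited file are on a log2 scale, for 30818 gene symbols in 29 libraries. No source states the transform. Undoing a variance-stabilising transform, with the lowest value of 3.75 as 0 reads, gave whole reads for 100.0% of values within 0.01, so they are taken as variance-stabilised log2 values made by the authors. Depth was 16403903 to 49026986 reads per library, with no molecular identifiers. The transform compresses low values, so log2 differences understate the change of low genes.

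Columns were matched to samples by the animal number in the titles, and 0 columns were unmatched. Genes at a normalized count of 10 or more in at least 4 of the 29 libraries were kept, 19387 in all. limma 3.58.1 (R 4.3.3, statmod 1.5.0), with a trend and robust moderation, fitted 6 group means over all 29 libraries on the deposited values. Benjamini-Hochberg adjustment over all genes was used with a threshold of 0.05, and every adjusted p in the text is from limma. The steps were tested on simulated data. Count models were not used, since the table holds no counts, and voom from limma was applied to the recovered reads as an alternative. Pairs of replicates had Pearson r over genes from 0.940 to 0.993 and differed by more than sampling noise.

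The members, gene lists and tests were chosen with earlier results of these data known. A rule names the 12 largest rises and 12 largest falls at a mean count of at least 50, the 4 lowest adjusted p of each of 46 lists, the markers Cyp2e1, Adrb3, Itgad, Mmp12 and Epcam, the readouts Lep, Adipoq, Adgre1, Fasn and Ucp1, and the 10 most stable genes. Beyond those named in the text, 1 gene that the rule takes is not reported here. Other genes named were chosen after their values were seen, for example Acly, Elovl6, Scd1, Srebf1, Pparg, Bmp3, Gpnmb, Peg3, Npr3, Cav1, Dlk1, Spp1, Itgax, Tnf, Nrg4, Krt18, Krt19, Cldn3, Prom1, Esr1 and Pgr. The Mup genes are nearly identical copies, so the values of Mup10 and Mup18 are uncertain. Coordinates are from GENCODE vM21 (GRCm38, which shares coordinates with mm10), and promoters are from RefSeq.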

Additional observations from a re-analysis of the deposited data

Results flagged for a closer look

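Within each group of 5, the highest and lowest library of each of the 194 genes was compared with the nearest of the others by Dixon's gap over range, against the critical value for 5 samples at the 95% level. Of 388 such groups 21 exceeded it, and chance alone exceeds it in about 1 in 20.

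Obese 4 lay far below the other Obese libraries for 5 macrophage and lysosome genes, with 149 normalized counts of Atp6v0d2, 16.4 of Tm4sf19, 1513 of Cd68, 126 of Trem2 and 427 of the complement receptor C3ar1. Obese 2 was flagged as lowest for 2 citrate cycle subunits whose other Obese values lay close together, so the gaps were small in size. These were Idh3b (2647, against 3101 in the next lowest, Obese 4) and Idh3g (2525, against 2781 in Obese 4). It was also lowest for the claudin Cldn7 (133, against 193 in Obese 3). Obese 1 was highest for the immediate early factor Fos (4591) and LFD 4 highest for the acyltransferase Gpam (7014).

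LFD 1 was far below the other LFD libraries for the B cell genes Cr2 (20.4), Blk (15.6), Spib (20.4) and Fcer2a (13.6) and for the T and NK cell genes Nkg7 (38.9), Cd3g (63.3) and Cd3e (68.1). Obese 2 was far above the other Obese libraries for the skeletal muscle genes Myh4 (14262), Ckm (3915), Actn3 (2281) and Tnnc2 (1159.5).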

How the results depend on the processing

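The 1159 genes called between LFD and Obese were 893 with no filter, 1123 with a minimum of 50, 1071 on log2(count + 1), 989 with quantile normalization, 903 with median centring, 1102 with voom, 1041 with lane as a term and 1068 with the muscle covariate. The number was 140 in a fit of only these groups, 3744 with array quality weights, 2528 with the B cell covariate, 12 with the luminal covariate, 171 without the libraries low in B cell transcripts and 277 without LFD 5 and Obese 2 (the last chosen after seeing the data). Leaving out 1 library gave from 456 to 1634. The cause of these moves was not tested.

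Between LFD and Control 0 genes passed with voom, in a fit of only these groups, with lane as a term or with the luminal covariate. The number was also 0 without the libraries low in B cell transcripts and in each fit that left out 1 library. Results of the other settings are not given for this comparison. The 1862 genes between LFD and LFCR were 1613 with voom, 1061 in a fit of only these groups, 794 with lane as a term, 13 with the luminal covariate, 19 without the libraries low in B cell transcripts and from 487 (without LFD 1) to 2401 (without LFCR 5) with 1 library left out, the voom and leave-one-out fits having been chosen after seeing the data. It was 489 without LFCR 2, 595 without LFD 3, 791 without LFCR 3, 834 without LFCR 1 and 1088 without LFD 4.

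Among the 73 called genes of the 194, 6 changed sign, all with the luminal covariate: Ptn (-0.18), Esrp1 (-0.0046), Wnt4 (-0.030), Prlr (-0.15), Sox10 (-0.042) and Bhlhe41 (-0.14). Calls that did not hold with lane as a term numbered 10, with voom 7 and with median centring 11. No paired analysis was possible because the labels give no replicate numbers shared between groups, and lane was the only block fitted. The low values of Lipf and Sult4a1 in LFD rest on few reads.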

Other observations

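The 12 largest rises also held genes whose LFD values spread widely. Mup10, a major urinary protein gene of the liver, had 218, 164, 389, 7210.4 and 7805 normalized counts in LFD, against 14.8, 62.7, 66.7, 26.1 and 179 in Obese (3.70, adjusted p = 0.0414), a call lost when any 1 of 7 libraries was left out (all but LFD 1, LFD 2 and Obese 5; adjusted p up to 0.144). LFD 4 and 5 were far above the other libraries, and the groups overlapped because LFD 2 lay below Obese 5. Mup18 followed (3.44, adjusted p = 0.0486), a call lost when any 1 of 8 libraries was left out (all but LFD 1 and LFD 2; adjusted p up to 0.164). Ptn, the growth factor pleiotrophin, had 11298, 1354, 4486, 7561 and 2899 counts in LFD, against 1233, 513, 366, 1463 and 1818 in Obese (2.21, adjusted p = 0.0356), with a call lost when any 1 of 7 libraries was left out (all but LFD 2, Obese 4 and Obese 5; adjusted p up to 0.105).

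Alb and Pon1 rose with calls that held in every fit that left out 1 library, and were chosen after their values were seen. Alb, serum albumin, had 609, 1111, 1121, 1179 and 2003 counts in LFD, against 510.1, 166, 239, 358 and 525 in Obese (1.69, adjusted p = 0.0133). Pon1, a paraoxonase, had 28.2, 67.9, 88.5, 109.6 and 73.9 counts in LFD, against 21.2, 10.2, 17.1, 12.7 and 14.1 in Obese (1.35, adjusted p = 0.00727). For Pon1 the groups did not overlap, and for Alb the lowest LFD library was above the highest Obese library too. Of matrix genes chosen in the same way, Sparc, a collagen-binding glycoprotein, had 51162, 43918, 27441, 32748 and 32085 counts in LFD, against 122309, 104009, 105819, 53553 and 145888 in Obese (-1.47, adjusted p = 0.00184). Mrc2, a receptor that takes up collagen, had 1867, 2165, 831, 1076 and 622 counts in LFD, against 8853, 6243, 5297, 2439.6 and 8853 in Obese (-2.26, adjusted p = 0.00107). Both were lower in every LFD library than in every Obese library.

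Among the remaining lists, Dsg1a was the only one of 6 keratinocyte genes that passed (-1.06, adjusted p = 0.00949), Ddit3 the only one of 14 endoplasmic reticulum stress genes (-0.39, adjusted p = 0.0409) and Hsd17b7 the only one of 22 cholesterol genes (-0.68, adjusted p = 0.0260). The call of Ddit3 was lost without LFD 3, LFD 4, LFD 5, Obese 1 or Obese 5 (adjusted p up to 0.139) and that of Hsd17b7 without LFD 3, LFD 4, LFD 5, Obese 1 or Obese 5 (adjusted p up to 0.0915). Of 18 fasting and glucocorticoid genes Lcn2 rose and Fgf21 and Cdkn1a fell (-0.72, adjusted p = 0.0494 for Cdkn1a, lost when any 1 of 8 libraries was left out (all but LFD 1 and Obese 4; adjusted p up to 0.160)). None of the neutrophil, mast cell, fibroblast, smooth muscle, sugar entry and glycolysis or fatty acid oxidation genes passed. Of 22 mature adipocyte genes Cfd and Adrb3 rose and Lep fell.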
